A study of Rattus norvegicus with 10 samples.

Results

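The genes of the ligands and receptors through which insulin, the insulin-like growth factors (IGFs) and growth hormone act were followed in late fetal rat kidney. They are Igf1, Igf2, Insr, Igf1r, Igf2r, Ghr, Irs1 and Irs2, 8 of the 10412 genes named singly on the array. Every probe set whose single platform symbol is among these names was taken, 14 of 15923, whatever its signal. The 10 kidney samples were taken on day 22 of gestation, 1 Affymetrix array each. In the hyperinsulinemic group (replicates 6 to 10) the mothers were Wistar rats of 200 to 280 g on a normal diet that carried a 2 mm piece of slow-release insulin implant under the skin, given before and again after mating, and the fetuses were growth restricted. In the normal group (replicates 1 to 5) the mothers were kept on a regular diet without a stated implant, and their strain is not given in the labels. The labels tie no sample to a litter, mother or sex, so p-values measure the spread among these arrays alone, part of which may be technical.

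Insulin signals through the insulin receptor, encoded by Insr, and IGF1 and IGF2 through the IGF1 receptor, encoded by Igf1r; fetal tissues also use an insulin receptor isoform that binds IGF2. The IGF2 receptor, which is also the cation-independent mannose 6-phosphate receptor, takes IGF2 up and sends it to lysosomes, and in rodents Igf2 is expressed from the paternal and Igf2r from the maternal allele. Activated insulin and IGF1 receptors phosphorylate the substrates IRS1 and IRS2, which dock PI3 kinase; growth hormone, through its receptor and the kinase JAK2, drives Igf1 transcription in liver mainly after birth. In the fetal kidney Igf2 is expressed mainly in mesenchyme, and both IGFs act on the growing nephron.

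The samples carried the defining transcripts of kidney: of 10 podocyte and tubule markers 9 were on the array under single symbols, and all 9 lay above the filter described further on, with a summed signal of 10310 to 11140 in the hyperinsulinemic group and 9419 to 10358 in the normal group. Hyperinsulinemic replicate 6 stood apart, at 19.5 on the leading principal component (21.8% of variance), where the remaining arrays spanned -7.44 to 0.48. Its correlations with the remaining arrays had a median of 0.981, and such medians were 0.985 to 0.988 elsewhere. Marker sums of the kidney stroma and of other tissues were uneven between arrays. The 11 liver markers measured summed to 1656 to 5876 in the hyperinsulinemic group and 1319 to 2961 in the normal group. Hyperinsulinemic replicate 6 and normal replicate 4 had the highest sums. Not every marker followed the sum. Afp was at its lowest on hyperinsulinemic replicate 6, at 706.5 units, where Alb was at its highest, at 1741.9 units. The 11 markers of interstitial stroma, the connective tissue between tubules, summed to 10571 to 11991 in the hyperinsulinemic group and 12025 to 13561 in the normal group, so these sums did not overlap. Adrenal markers summed to 914 in normal replicate 1 and to at most 165 on every other array. Xist, made from the inactive X chromosome, had a signal of 42.4 to 70.5 in the hyperinsulinemic group and 0.8 to 2 in the normal group, so treatment and fetal sex cannot be told apart. No marker of these lists was at 0 on all arrays, and the part of these tissues in the results was not tested except where a value is given. In whole kidney, fewer cells of a type and less RNA per cell cannot be told apart.

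**Figure D1:**
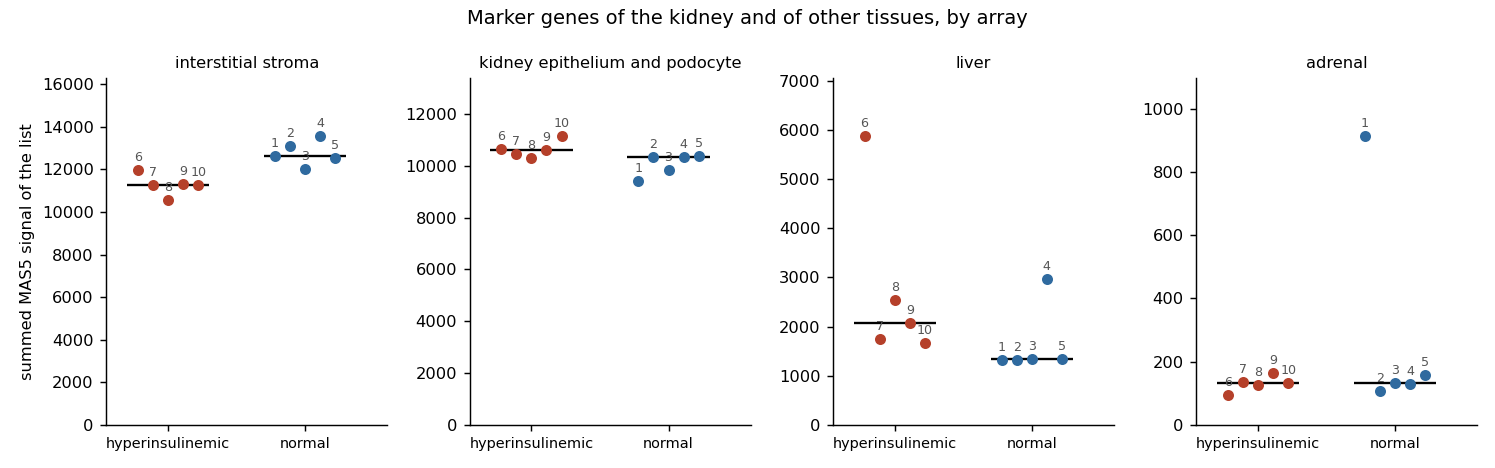
Summed MAS5 signal (vertical axis, linear units, from 0) of the fixed marker lists of interstitial stroma, kidney epithelium and podocytes, liver and adrenal, for 5 hyperinsulinemic and 5 normal arrays. Points are arrays labelled by replicate number and horizontal lines are group medians; stroma sums of the groups do not overlap, hyperinsulinemic replicate 6 is highest for liver at 5876 and normal replicate 1 for adrenal at 914.

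Signals are linear MAS5 units, scaled by the authors so that the trimmed mean of every array is 250, and are set side by side only within a probe set. The test took in probe sets at or above the 40th percentile of the array (79.2 to 87.6 units) on at least 5 of the 10 arrays. Of the 14 probe sets 7 were tested, covering 6 genes, and 7 were below that filter, among them the only probe sets of Igf1r and Irs1. Log2 differences are hyperinsulinemic minus normal on the log2(signal + 16) scale. They are given with standard errors or 95% intervals from limma, which tested 9601 probe sets together. For probe sets below the filter, standard errors come from the variances within each group, without limma. Values after ± beside signals are SDs, with n = 5 arrays in each group.

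No difference between kidneys of the hyperinsulinemic and the normal group passed for any of the 7 tested probe sets. The count at an adjusted p under 0.05 in limma was 0, and 1, a probe set of Ghr, had an unadjusted p under 0.05; over all 9601 probe sets, 0.0104% passed the adjusted and 5.36% the unadjusted threshold. Ghr had the largest difference, at 0.81 of the normal level (95% interval 0.67 to 0.98). That probe set reached the filter on 5 normal but only 2 hyperinsulinemic arrays, so it entered the test through the group where it was higher. For the other 6 probe sets, of Igf1, Igf2, Insr, Igf2r and Irs2, the 95% intervals on that scale ran at most from 0.80 to 1.12. The groups overlapped for all 14 probe sets, against 1.04% of all tested probe sets whose groups did not overlap. Of the 14, the mean log2 signal was lower in the hyperinsulinemic group for 12 and higher for 2. Of all 15866 non-control probe sets, 50.2% were lower. The median difference over the 14 was -0.05. Over the 7 tested it was -0.06, against 0.0020 over all tested probe sets. These counts describe direction only, since probe sets of 1 gene share their target and several signs turned when 1 array was left out. The counts over the 14 also take in dim probe sets below the filter, among them those of Igf2 near the floor of the array.

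**Figure D2:**
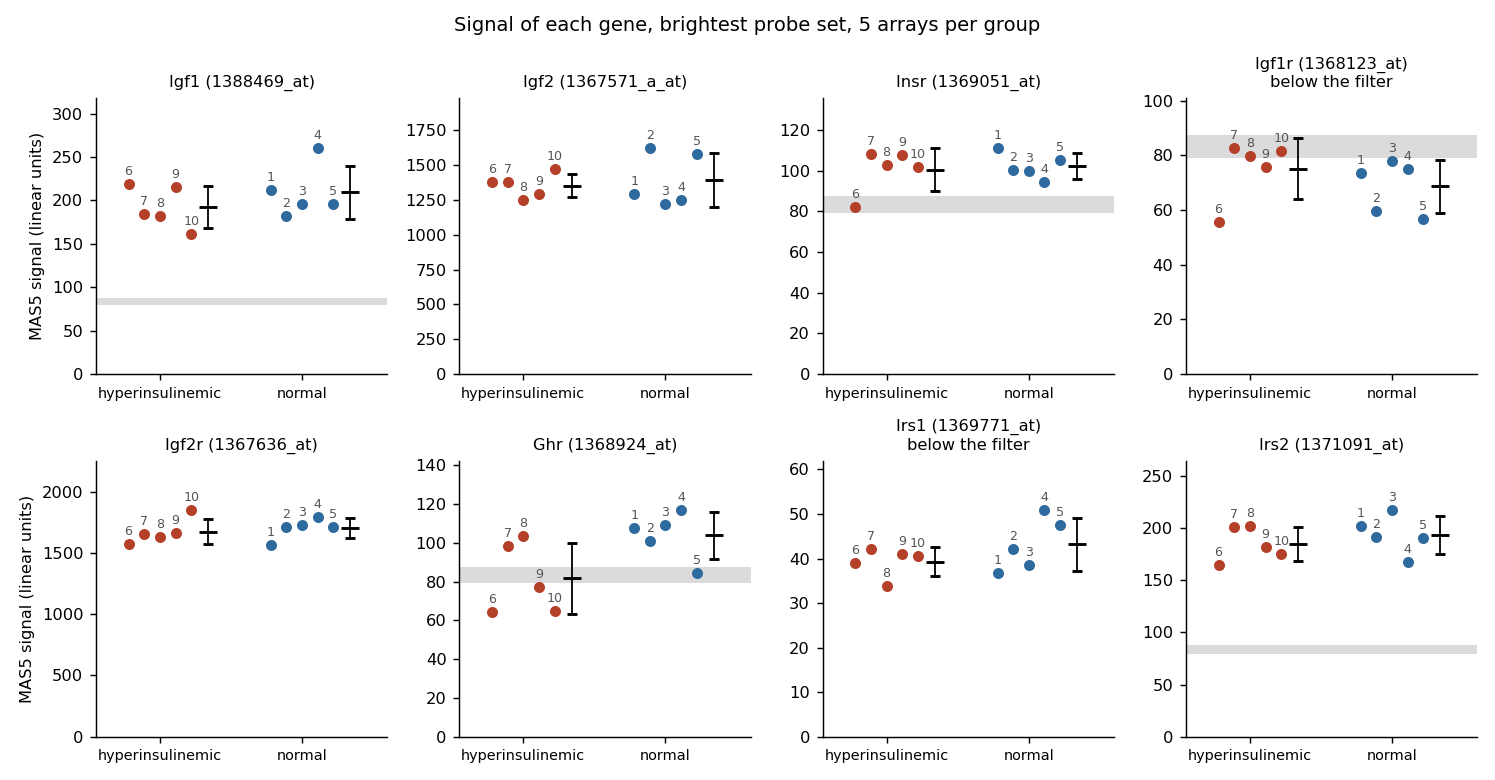
MAS5 signal (vertical axis, linear units, from 0) of the brightest probe set of each of the 8 genes on 5 hyperinsulinemic arrays (left, red) and 5 normal arrays (right, blue), points labelled by replicate number, with mean and SD beside them. Grey bands mark the range of the arrays' 40th percentiles, 79.2 to 87.6 units; the groups overlap in every panel, and the hyperinsulinemic replicates 6, 9 and 10 lie below all normal arrays for Ghr.

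**Figure D3:**
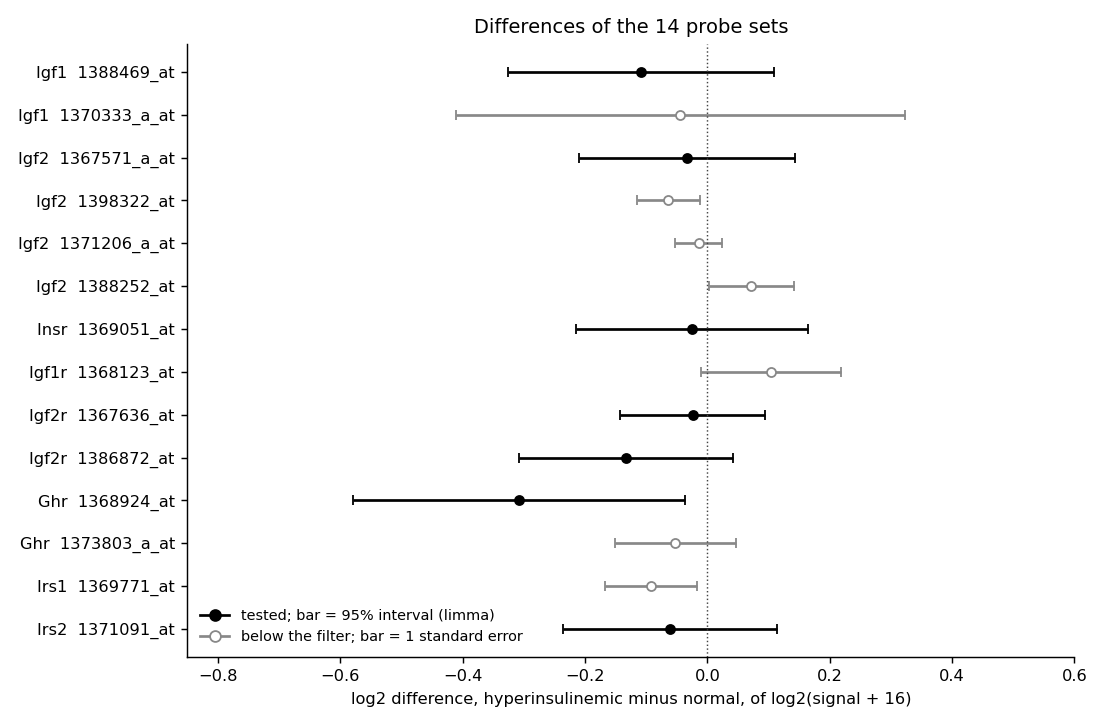
Log2 difference, hyperinsulinemic minus normal, of log2(signal + 16) for all 14 probe sets (horizontal axis). Filled points were tested, with 95% intervals from limma, and open points lay below the filter, with 1 standard error. Of the tested intervals only that of Ghr 1368924_at, from -0.58 to -0.04, leaves out 0. This probe set reached the filter on 5 normal but only 2 hyperinsulinemic arrays.

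Among the ligands, Igf2 gave a bright signal. Probe set 1367571_a_at read 1376, 1378, 1250, 1294 and 1469 units on hyperinsulinemic replicates 6 to 10, against 1293, 1625, 1224, 1248 and 1581 units on normal replicates 1 to 5. The normal arrays spanned the wider range and enclosed every hyperinsulinemic array; normal replicates 2 and 5 were the highest. The means were 1354 ± 84.7 units in the hyperinsulinemic group and 1394 ± 193 units in the normal group, or -0.03 ± 0.08 on the log2 scale (limma, adjusted p = 0.983), with a 95% interval from -0.21 to 0.14. The other 3 Igf2 probe sets, 1398322_at, 1371206_a_at and 1388252_at, lay near the floor of the array on every array. Their signals ran from 1.3 to 5.5 units in the hyperinsulinemic group and from 1.6 to 7 units in the normal group, so they measured no level of Igf2 that could be compared (exact permutation p = 0.270, 0.841 and 0.373).

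Igf1 was measured by 1388469_at, which read 218.7, 184.8, 182.5, 215.2 and 161.7 units on hyperinsulinemic replicates 6 to 10, against 212.3, 181.6, 196.1, 260.7 and 195.5 units on normal replicates 1 to 5. Hyperinsulinemic replicate 10 was the lowest array and normal replicate 4 the highest, and the rest overlapped. The means were 193 ± 24.0 units in the hyperinsulinemic group and 209 ± 30.8 units in the normal group, or -0.11 ± 0.10 on the log2 scale (limma, adjusted p = 0.973), with a 95% interval from -0.33 to 0.11. Normal replicate 4 was also the array with the highest summed stroma signal; without it the log2 difference of Igf1 was -0.03. The second Igf1 probe set, 1370333_a_at, was below the filter and erratic, at 8 to 57.5 units in the hyperinsulinemic group and 7.5 to 44.4 units in the normal group (exact permutation p = 0.921).

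Insr encodes the receptor of the hormone given to the mothers. Insulin lowers the activity of FOXO factors, which bind TGTTTAC-type sequences, and FOXO target genes are known to include Insr and Irs2. The promoter of Insr is therefore printed, from RefSeq (GRCr8, chr12:6128754-6129053, minus strand), with the match to TGTTTAC in capitals.
Insr: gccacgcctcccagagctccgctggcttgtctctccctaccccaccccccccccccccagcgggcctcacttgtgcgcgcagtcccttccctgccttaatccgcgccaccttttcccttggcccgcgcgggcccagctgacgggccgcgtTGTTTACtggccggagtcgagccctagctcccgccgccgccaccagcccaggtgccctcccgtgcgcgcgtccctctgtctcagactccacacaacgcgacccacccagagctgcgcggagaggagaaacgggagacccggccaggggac
The window runs from 250 bases before to 50 bases after the annotated start, and the match begins 100 bases before the start. On either strand, TGTTTAC occurred in 1 of the 8 promoter windows found for 7 of the 8 genes, that of Insr. It occurred in 3.78% of all 33469 windows of this length. No window was found for Irs2, so its promoter was not searched. The motif was chosen after the Insr sequence had been seen, and a match is not evidence of binding. Insr, on 1369051_at, read 82.2, 108.0, 103.0, 107.5 and 102.0 units on hyperinsulinemic replicates 6 to 10, against 111.3, 100.2, 100, 94.5 and 105.4 units on normal replicates 1 to 5. Only hyperinsulinemic replicate 6, the array with the highest liver marker sum, lay below the normal range, and the other 4 lay inside it. The means were 101 ± 10.6 units in the hyperinsulinemic group and 102 ± 6.35 units in the normal group, or -0.02 ± 0.09 on the log2 scale (limma, adjusted p = 0.988). The 95% interval, from -0.21 to 0.16, corresponds to 0.86 to 1.12 of the normal level. Without hyperinsulinemic replicate 6 the log2 difference was 0.04.

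Igf1r, the receptor of both IGFs, was dim. Its only probe set, 1368123_at, reached the filter on 0 arrays, and read 55.7, 82.8, 79.8, 75.9 and 81.5 units on hyperinsulinemic replicates 6 to 10, against 73.6, 59.6, 78.1, 75.1 and 56.9 units on normal replicates 1 to 5. Hyperinsulinemic replicates 7, 8 and 10 lay above all normal arrays while replicate 6 lay below them. The means were 75.1 ± 11.2 units in the hyperinsulinemic group and 68.7 ± 9.69 units in the normal group, a log2 difference of 0.10 ± 0.11 (exact permutation p = 0.294). It was the 1 gene of the 8 whose brightest probe set had the higher mean in the hyperinsulinemic group.

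Igf2r, which clears IGF2, was bright on both of its probe sets. On 1367636_at it read 1572, 1656, 1628, 1660 and 1846 units on hyperinsulinemic replicates 6 to 10, against 1564, 1713, 1725, 1789 and 1708 units on normal replicates 1 to 5. The groups covered much the same range, and the log2 difference was -0.02 ± 0.06 (limma, adjusted p = 0.983). Its residual SD, 0.08 on the log2 scale, was under the median of all tested probe sets, 0.13. On 1386872_at it read 1268, 1070, 1209, 1091 and 1218 units on hyperinsulinemic replicates 6 to 10, against 1087, 1260, 1202, 1400 and 1508 units on normal replicates 1 to 5. All 5 hyperinsulinemic arrays were below the normal mean of 1291 ± 165 units, but normal replicate 1 lay among the lowest of them. The log2 difference of 1386872_at was -0.13 ± 0.08 (limma, adjusted p = 0.955), with a 95% interval from -0.31 to 0.04.

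Ghr encodes the growth hormone receptor and, by alternative splicing in rat, a short soluble growth hormone binding protein. Its promoter window is printed because the gene had the largest difference of the 8 and growth hormone acts through STAT5 (RefSeq, GRCr8, chr2:54432026-54432325, minus strand).
Ghr: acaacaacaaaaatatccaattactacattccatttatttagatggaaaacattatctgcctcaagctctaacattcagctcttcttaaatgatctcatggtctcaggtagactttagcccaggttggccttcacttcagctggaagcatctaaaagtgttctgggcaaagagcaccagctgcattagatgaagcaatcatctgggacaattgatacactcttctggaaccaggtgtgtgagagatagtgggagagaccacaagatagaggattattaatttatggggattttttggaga
TGTTTAC and the STAT5 pattern TTCNNNGAA were not found in it on either strand; TTCNNNGAA was found in 0 of the 8 windows and in 8.87% of all windows. With 40% G and C it was the window of the 8 poorest in these bases, against 71.3% for Insr and a median of 51.7% over all windows.
Probe set 1368924_at read 64.4, 98.2, 103.6, 77.4 and 64.9 units on hyperinsulinemic replicates 6 to 10, against 107.8, 101.1, 109.2, 116.7 and 84.2 units on normal replicates 1 to 5. Hyperinsulinemic replicates 6, 9 and 10 lay below every normal array, while replicates 7 and 8 lay inside the normal range. The means were 81.7 ± 18.4 units in the hyperinsulinemic group and 104 ± 12.3 units in the normal group, a log2 difference of -0.31 ± 0.13 with a 95% interval from -0.58 to -0.04. The unadjusted p was 0.0290 and the adjusted p 0.918 (limma); 2.93% of all tested probe sets reached an unadjusted p under 0.05 in this direction, and 67 had a lower log2 difference. The probe set reached the filter on 5 normal and 2 hyperinsulinemic arrays, so it was tested on account of its level in the normal group.

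The difference of Ghr kept its sign when any 1 array was left out, but its size and unadjusted p depended on the array. These fits reuse the same arrays and the filter set on all 10, which the probe set passed through the normal group. They are therefore not independent support. The log2 difference of 1368924_at was -0.24 without hyperinsulinemic replicate 6 (limma, unadjusted p = 0.0757) and -0.25 without replicate 10 (unadjusted p = 0.0793), and -0.39 without replicate 8 (unadjusted p = 0.00848, adjusted p = 0.903). It was -0.30 without hyperinsulinemic replicate 9 (unadjusted p = 0.0521), -0.29 without normal replicate 1 (unadjusted p = 0.0544), -0.29 without normal replicate 3 (unadjusted p = 0.0577) and -0.27 without normal replicate 4 (unadjusted p = 0.0695). Leaving out 1 array thus took the unadjusted p above 0.05 in 6 of 10 cases, and array weights gave -0.25 (unadjusted p = 0.0549). Without hyperinsulinemic replicate 9 or normal replicate 1, 3 or 4 the difference stayed near the -0.31 of all arrays. The standard error there was 0.14 against 0.13, so a p above 0.05 in those cases also reflects the loss of an array. Replicate 6 had the highest liver marker sum of all arrays but the lowest Afp. Normal replicate 4, second for that sum, had the highest Ghr. With the mean of the liver markers as a covariate the difference was -0.30 (limma, unadjusted p = 0.0773, adjusted p = 0.960). With the mean of the stroma markers as a covariate it was -0.18 ± 0.40 (limma, unadjusted p = 0.653, adjusted p = 0.999), where the standard error without a covariate was 0.13. The summed stroma signals of the groups did not overlap, so that fit can hardly separate stroma from group, and no conclusion is drawn from it. The ratio of the 3′ to the 5′ Gapdh control signals, a sign of RNA degradation, was 1.13, 1.04, 1.06, 1.03 and 1.18 on hyperinsulinemic replicates 6 to 10, against 1.02, 1.09, 1.03, 1.09 and 1.14 on normal replicates 1 to 5. The ratio was highest on hyperinsulinemic replicates 10 and 6 and normal replicate 5, and these had the lowest Ghr signals of their groups. All ratios lay within the narrow range of 1.02 to 1.18, so no array stood out as degraded by it. The match was noticed after the data were seen, and a part of RNA quality in it was not tested. With this ratio as a covariate, chosen after seeing the data, the difference was -0.27 (limma, unadjusted p = 0.0251, adjusted p = 0.812). The second Ghr probe set, 1373803_a_at, was below the filter on every array and read 55.7, 49.9, 52.7, 39.1 and 53.2 units on hyperinsulinemic replicates 6 to 10, against 55.7, 50.5, 62.6, 41.8 and 52.5 units on normal replicates 1 to 5. It was close in the groups, with a log2 difference of -0.05 ± 0.10 (exact permutation p = 0.595), and replicates 6 and 10, lowest on 1368924_at, were not low on it. As a description over the 10 arrays with group means subtracted, the Pearson correlation between these Ghr probe sets was -0.14, and that between the Igf2r probe sets was 0.38. Which Ghr transcript each probe set reads is not given in the sources used here.

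**Figure D4:**
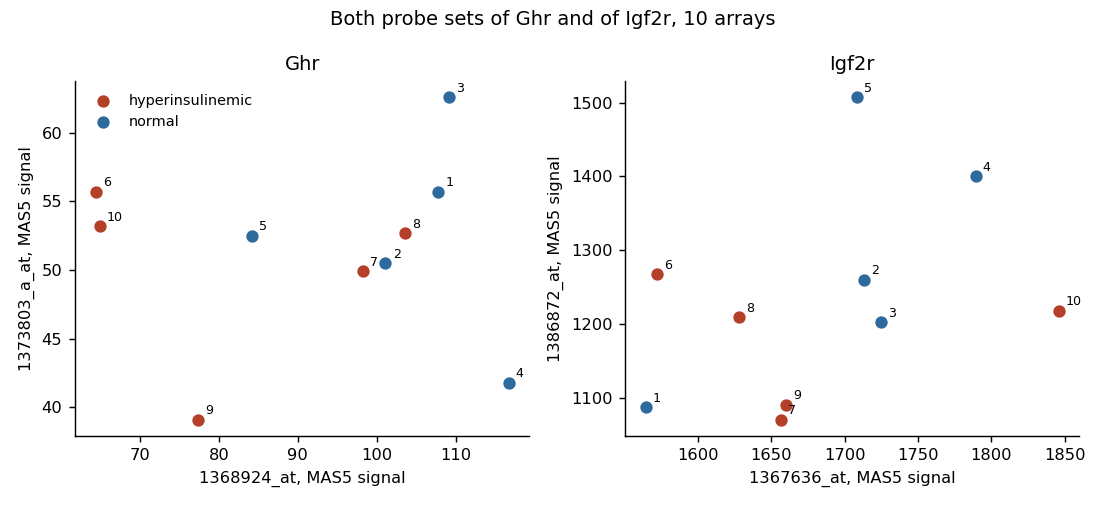
MAS5 signals (linear units, axes not from 0) of both probe sets of Ghr (left) and of Igf2r (right), 1 point per array labelled by replicate number, hyperinsulinemic arrays red and normal arrays blue. Hyperinsulinemic replicates 6 and 10 are low on Ghr 1368924_at, at 64.4 and 64.9 units, but not on 1373803_a_at, at 55.7 and 53.2 units.

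Of the receptor substrates, Irs2 was measured above the filter. On 1371091_at it read 165.1, 200.8, 202.4, 181.6 and 175.1 units on hyperinsulinemic replicates 6 to 10, against 202.0, 191.7, 217.0, 167.5 and 190.8 units on normal replicates 1 to 5. The groups covered nearly the same range, and the means were 185 ± 16.3 units in the hyperinsulinemic group and 194 ± 18.1 units in the normal group. The log2 difference was -0.06 ± 0.08 (limma, adjusted p = 0.973), with a 95% interval from -0.24 to 0.11. Irs1, on 1369771_at, was below the filter on every array and read 39.1, 42.1, 33.9, 41.0 and 40.6 units on hyperinsulinemic replicates 6 to 10, against 36.7, 42.2, 38.6, 50.8 and 47.5 units on normal replicates 1 to 5. Its highest values were on normal replicates 4 and 5 and its lowest on hyperinsulinemic replicate 8 (exact permutation p = 0.246). For probe sets outside the limma fit, the smallest p that 5 against 5 arrays can give is 0.00794.

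Apart from the groups, the 6 tested genes did not vary together in a way that held after adjustment. Over 15 pairs, on 10 arrays with group means subtracted, Pearson's r ran from -0.59 to 0.61 and none passed (0 at an adjusted and 0 at an unadjusted permutation p of 0.05, 100000 resamples). The strongest positive pair was Insr with Irs2, at r = 0.61 (permutation p = 0.0540, adjusted p = 0.360) and rho = 0.41 (permutation p = 0.248, adjusted p = 0.620). Without the 2 arrays farthest from the median of Insr, r was -0.02, so the value of r depended on those arrays. Leaving them out also narrows the range of Insr, so no further conclusion is drawn from that fall. The strongest negative pair was Igf2 with Ghr, at r = -0.59 (permutation p = 0.0776, adjusted p = 0.360) and rho = -0.53 (permutation p = 0.123, adjusted p = 0.617), and r was -0.58 without the 2 arrays farthest from the median of Igf2. Igf1 and Ghr, linked in liver after birth, gave r = 0.13 (permutation p = 0.721, adjusted p = 0.832) and rho = 0.16 (permutation p = 0.657, adjusted p = 0.822), with r = 0.27 without the 2 arrays farthest from the median of Igf1.

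Among 7266 other tested genes, those nearest each gene in pattern over the 10 arrays, by Pearson's r of group-centred log2 signals, are given as a description. They were Lyrm2 (0.95), Rnf144b (0.93) and Hnf4a (0.93) for Ghr, Spart (0.97), Stt3b (0.95) and Exoc3 (0.95) for Insr, and Zfp106 (0.97), Fam91a1 (0.97) and Zfhx3 (0.94) for Irs2. For the ligands they were Ss18 (0.94), Phka1 (0.90) and Prmt6 (0.89) for Igf1 and Zfp444 (0.95), Hsph1 (0.90) and Lyar (0.88) for Igf2, and for Igf2r they were Rpl5 (0.92), Pcbp1 (0.91) and Tspan33 (0.91). These values share the same 10 arrays and their scaling, and each gene was picked as the highest of all.

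The rest of the pathway was set beside these genes through 7 lists of 94 genes, of which 79 were on the array under single symbols and 60 were tested. None of the 60 passed (limma, adjusted p; 0.0138% of all tested genes did), 32 were higher and 28 lower, and the median log2 difference was 0.01, against 0.0029 over all 7267 tested genes. An unadjusted p under 0.05 was reached by 4, or 6.67%, against 5.16% of all tested genes.

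Of those 4, 3 belonged to the IGF binding proteins and IGF proteases, where 11 of 14 genes were tested, 4 higher and 7 lower. Igfbp3, the main carrier of IGFs in adult plasma, averaged 232 ± 19.9 units in the hyperinsulinemic group and 290 ± 35.9 units in the normal group, or -0.30 ± 0.09 on the log2 scale (limma, adjusted p = 0.676). All but 1 hyperinsulinemic array lay below every normal array, and that array, at 251.9 units, met the lowest normal array at 251.6 units. Igfbp6, which prefers IGF2, averaged 99.7 ± 20.2 units in the hyperinsulinemic group and 124 ± 13.8 units in the normal group, and Pappa2, a protease that cleaves IGF binding proteins, averaged 143 ± 12.6 units in the hyperinsulinemic group and 123 ± 11.0 units in the normal group (limma, adjusted p = 0.918 for each). The fourth was Gga3, an adaptor that sorts mannose 6-phosphate receptors between Golgi and endosomes, at 171 ± 26 units in the hyperinsulinemic group and 134 ± 16.8 units in the normal group, or 0.31 ± 0.10 on the log2 scale (limma, adjusted p = 0.865). In its list of IGF2 transcript and receptor partners 8 of 13 genes were tested, 4 higher and 4 lower, and H19, the non-coding neighbour that shares its imprinting control with Igf2, had a log2 difference of 0.06.

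In the other lists 0 genes passed and 0 reached an unadjusted p under 0.05. Of the inhibitors of receptor signalling 8 of 15 were tested, 7 higher and 1 lower, with a median log2 difference of 0.06. The member with the smallest p was Inppl1, a lipid phosphatase, at 593 ± 35.6 units in the hyperinsulinemic group and 528 ± 73.9 units in the normal group. Of the adaptors 8 of 15 were tested, 6 higher and 2 lower, led by Sos1, the Ras exchange factor, at 0.27 ± 0.14 on the log2 scale. Its lowest normal array, replicate 5 at 181.6 units, stood apart from the other normal arrays, which read at least 311.5 units. In the PI3 kinase, AKT, mTOR and FOXO list 17 of 21 were tested, 9 higher and 8 lower, with the smallest p for Tsc2, an inhibitor of mTOR, at 0.13 ± 0.06. In growth hormone receptor signalling 6 of 9 were tested, 1 higher and 5 lower, with differences no larger than that of Stat5a at -0.06; Jak2 stood at -0.02 and Lyn, which had the smallest p, at -0.04 ± 0.08. Of the insulin genes and prohormone convertases 2 of 7 were tested: Ins1 was dim, at 47.7 to 128.1 units in the hyperinsulinemic group and 56.6 to 98.5 units in the normal group, and Cpe had a log2 difference of -0.11.

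**Figure D5:**
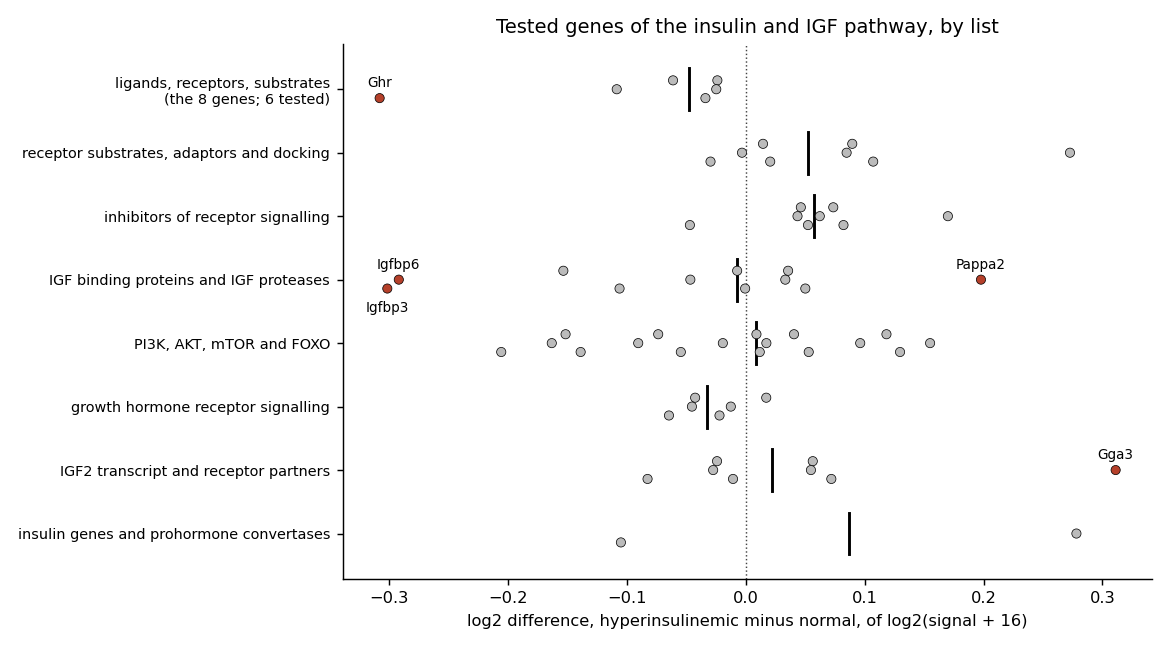
Log2 difference, hyperinsulinemic minus normal, of log2(signal + 16) (horizontal axis) for each tested gene, by its brightest probe set, in rows for the 8 genes followed here and for the 7 pathway lists. Each point is a gene, red where the unadjusted limma p is under 0.05, and vertical bars are list medians. Ghr, Igfbp3 and Igfbp6 are red on the lower side, Pappa2 and Gga3 on the higher side, and none passed after adjustment. Ghr entered the test through the normal group, where it was higher.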

How the data were processed

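Total RNA of 10 fetal rat kidney samples was measured on 1-colour Affymetrix arrays. The deposited values are linear intensity values, 1 per probe set and array, made by the authors with MAS5, per the submitters' processing notes; its version and settings are not given in the sources used here. They were used as deposited. Each trimmed mean, leaving out 2% at each end, was 250, and array medians were 130 to 136.9 units. The number of arrays limits the precision.

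GEO's platform annotation gave 1 symbol for 12789 probe sets, several for 312 and none for 2822; 12754 of the first matched the GRCr8 gene table by Entrez identifier. The 57 control probe sets were left out. The group difference was fitted by limma 3.58.1 under R 4.3.3 (eBayes with an intensity trend, two-sided, Benjamini-Hochberg over 9601 probe sets) on log2(signal + 16), which understates changes of dim genes. The fit was tested on simulated data. Probe sets below the filter had exact two-sided permutation tests. A gene with several probe sets was taken by its brightest. Pathway genes were named as those with an unadjusted p under 0.05, at most 4 per list, or else the 1 with the smallest p. The genes, lists and tests were chosen with earlier results of these data known. Stat5a, Jak2, H19 and Cpe were named after their values had been seen. Figures and permutation tests of pairs used Python 3.11.15, scipy 1.17.1 and matplotlib 3.10.9.

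Alternatives were pseudocounts of 1 and 32, no filter, a filter at the 60th percentile on all arrays, quantile and median normalization, no intensity trend, array weights, liver or stroma markers as covariates, averaging probe sets within a gene, pairs without centring, leaving out each array and, added after the data were seen, the Gapdh ratio as a covariate.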

Additional observations from a re-analysis of the deposited data

Results flagged for a closer look

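Within-group screening of the 14 probe sets, 28 groups of 5 arrays in all, found 3 readings, on 2 arrays, far from the rest of their group, where chance alone marks about 1 group in 20. Insr read 82.2 units on hyperinsulinemic replicate 6, the lowest of its group. Igf1r read 55.7 units on the same replicate, also the lowest of its group. The Igf2 probe set 1371206_a_at, near the floor, read 5.1 units on hyperinsulinemic replicate 10, the highest of its group.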

How the results depend on the processing

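No member probe set passed under any alternative run, with adjusted p-values in limma from 0.684 to 1.0 for Ghr 1368924_at. Some signs turned. Insr was 0.0044 with array weights and 0.0855 with the liver covariate, and Irs2 was 0.028 with the liver covariate. Igf2 was 0.015 with the liver and 0.021 with the stroma covariate, and Igf1 was 0.21 with the stroma covariate. With the stroma covariate the standard error rose from 0.10 to 0.31 for Igf1 1388469_at and from 0.08 to 0.24 for Igf2r 1386872_at. Stroma sums of the groups did not overlap, so fits with this covariate can hardly separate stroma from group. Leaving out each array gave -0.049 to 0.036 for Insr, -0.078 to 0.023 for Igf2 1367571_a_at, -0.15 to -0.03 for Igf1 1388469_at, -0.39 to -0.24 for Ghr 1368924_at, -0.060 to -0.0023 for Igf2r 1367636_at, -0.19 to -0.08 for Igf2r 1386872_at, -0.11 to -0.02 for Irs2, -0.28 to 0.17 for Igf1 1370333_a_at, -0.040 to 0.0055 for Igf2 1371206_a_at and -0.11 to 0.012 for Ghr 1373803_a_at; the cause was not tested. The count of all probe sets passing, 1, was 5 without a filter, 2 with a common median, 4 with array weights and 0 without the intensity trend or with the liver or stroma covariate. Without single arrays it ran from 0 to 4: 4 probe sets passed without hyperinsulinemic replicate 6, 2 without normal replicate 5, and 0 when hyperinsulinemic replicate 7 or 9 or normal replicate 1, 2, 3 or 4 was left out. The difference of Igf2r 1386872_at, -0.13, was -0.19 without normal replicate 1 (unadjusted p = 0.0257), -0.08 without normal replicate 5, -0.21 with the liver covariate (unadjusted p = 0.0413), -0.49 with the stroma covariate (unadjusted p = 0.0616) and -0.16 with the Gapdh ratio as a covariate, chosen after seeing the data (unadjusted p = 0.0176, adjusted p = 0.785). Igf1 1388469_at was -0.27 with the liver covariate (unadjusted p = 0.0154, adjusted p = 0.951). Without centring on group means 0 pairs passed, with r = 0.62 for Insr and Irs2 (permutation p = 0.0465, adjusted p = 0.676) and r = -0.38 for Igf2 and Ghr (permutation p = 0.276, adjusted p = 0.756). Under the filter at the 60th percentile only Igf2 and Igf2r were tested. No paired analysis was possible because the labels link no array of 1 group to an array of the other. Signals near the filter, as for Ghr and Igf1r, limit what these arrays can show.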

Other observations

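Adrenal steroid enzyme transcripts were present on 1 array. In normal replicate 1, Hsd3b1 read 218.4 units, Cyp11b1 155.8 units, Cyp21a1 195.2 units and Cyp11a1 294.6 units, while on the other 9 arrays the highest readings were 6.3, 19.6, 34.4 and 78.2 units. Without that array the log2 difference was 0.0020 for Insr and -0.29 for Ghr 1368924_at. For Igf2r 1386872_at it was -0.19 (limma, unadjusted p = 0.0257, adjusted p = 0.999), against -0.13 on all arrays.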
